A study of Gallus gallus with 16 samples.

Results

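The comparison described here set chicks given 6 h of normal vision after form deprivation against chicks that never wore an occluder, and its members are 8 of the 16 RNA-seq libraries of the series. The FDMR 6 h group (form-deprivation myopia, recovery) held chicks 18, 19, 21 and 23, and the No Lens group held chicks 3, 4, 6 and 7, with groups taken from the sample labels and 1 chick to a library. All were male Leghorn/New Hampshire chicks reared on 12 h of light and 12 h of dark, and in each the retina, retinal pigment epithelium (RPE) and choroid of the right eye were collected in a single sample. The FDMR 6 h chicks had worn a translucent occluder over the right eye for 7 days from post-hatch day 5, and the No Lens chicks had worn none. Controls were collected at about 10 am, after 2 h of light, and the FDMR 6 h chicks at about 4 pm, after 8 h of light, so recovery and hour of the day cannot be told apart in this comparison. The FDMR 6 h chicks also differed from the controls in the preceding occlusion. The other groups, both occluded as well, were 4 chicks collected at occluder removal (FDM 7 d) and 4 collected after 24 h of recovery (FDMR 24 h), both at about 10 am, and they entered the fit and are given for context. The authors chose 4 of the 8 chicks measured in each group for comparable axial length, and the labels give an age of 20 post-hatch days, or 21 for FDMR 24 h, where the methods of the study give 12 days at occluder removal. Of 17108 genes in the count table, 11334 had at least 10 counts in at least 4 of the 16 libraries and were tested.

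Form deprivation removes sharp images from the retina, and the young eye responds by growing too long and becoming short-sighted. When the occluder comes off, the eye sees myopic blur, its choroid thickens and its growth slows. The signals that pass from retina through RPE and choroid to the sclera include secreted growth factors, retinoic acid, dopamine and neuropeptides. The same tissues hold a circadian clock, in which the activators CLOCK, NPAS2 and BMAL1 (gene symbol ARNTL) drive the period and cryptochrome genes, whose proteins feed back on the activators. Cone photoreceptors, which dominate the chick retina, convert light to a drop in cyclic GMP by way of opsin, transducin, phosphodiesterase and a cyclic nucleotide-gated channel, and shut the response off with kinases, arrestins and calcium sensors.

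Depth was alike in both groups, with 3039798 to 4351598 counts on genes in the No Lens libraries and 3969595 to 4631032 in the FDMR 6 h libraries. Of all 16 libraries, FDMR 24 h chick 29 was the shallowest, with 1553717 counts on genes, and had the highest mitochondrial share (7.00%). That chick is part of the shared fit and of every 24 h value below. One control, No Lens chick 3, stood apart from the others. Its counts differed from those of the other controls by a chi-square of 6.91 to 11.1 per degree of freedom, against 2.88 to 4.34 between the other controls and 3.04 to 5.90 between FDMR 6 h chicks, and no pair of libraries differed by as little as sampling noise. The biological coefficient of variation over all 4 groups was 12.5%. Lists of marker genes for each cell type of the tissue were compared. Rod markers summed to 1069 to 2494 CPM in the controls and 1357 to 1916 at 6 h, RPE markers to 1554 to 1643 and 1587 to 1918, and amacrine markers to 2722 to 3346 and 2821 to 3068, where CPM, the unit of every level below, is a gene's count per 1000000 counts of the library size after TMM scaling, a normalization between libraries. Cone markers summed to 6196 to 7284 CPM in the controls and 4429 to 5025 at 6 h, so the groups did not overlap. PDE6H was the largest part of that sum, with a mean of 3572 CPM in the controls and 2772 at 6 h. Of the 5 cone markers tested, 4 (PDE6C, ARR3, PDE6H and GUCA1A) were called lower. The other, GNAT2, was not called (log2 fold change 0.12 ± 0.13 (SE), edgeR adjusted p = 0.935). Over all genes tested, 1.55% were called higher and 1.18% lower, and 3.01% were separated downward between the groups. The red cone opsin OPN1LW had no counts in any of the 8 libraries. Whether that reflects its level or how reads were assigned to genes was not tested. Erythrocyte markers were few and low, at 3.98 to 14.8 CPM in sum in the controls and 11.4 to 18.1 at 6 h, and none of the 4 tested was called. Beyond these, 1 rod marker (CNGA1) was called higher and 1 RPE marker (LRAT) lower, and no marker of bipolar, amacrine, horizontal or ganglion cells, glia, vessels, connective tissue, muscle or leukocytes was called. In bulk tissue, fewer cells of a type and less RNA per cell cannot be told apart.

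At an FDR of 5% by edgeR's quasi-likelihood test with Benjamini-Hochberg adjustment, 310 of the 11334 genes differed between FDMR 6 h and No Lens (2.74%). Of these 176 were higher (1.55%) and 134 lower (1.18%), and every adjusted p below comes from this test. The median log2 fold change was 0.56 among the genes that rose and -0.55 among those that fell, beside 0.00 over all genes tested, and 35 and 19 of them changed by at least 1 on the log2 scale. All 4 FDMR 6 h chicks lay above all 4 controls in 171 of the 176 genes and below in 129 of the 134, while over all genes tested 3.73% were separated upward and 3.01% downward. The genes that rose took 2.47% of the counts on genes in the controls and 3.52% at 6 h, and the genes that fell took 4.33% and 2.76%. Without No Lens chick 3, 280 genes were called, and leaving out any other of the 8 chicks left between 218 and 239. Circadian clock genes moved in both directions, and cone phototransduction genes were mostly lower. The secreted factors BMP2, BMP4 and pentraxin 3 and the protease inhibitor family member SERPINE3 were among the largest rises. Another BMP ligand, BMP3, was among the largest falls. Lists of genes by pathway are described by how many members were called and by their median, without a test of the list. Lists and members were chosen with earlier results of these data known, which can raise the share called above that of all genes tested.

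**Figure D1:**
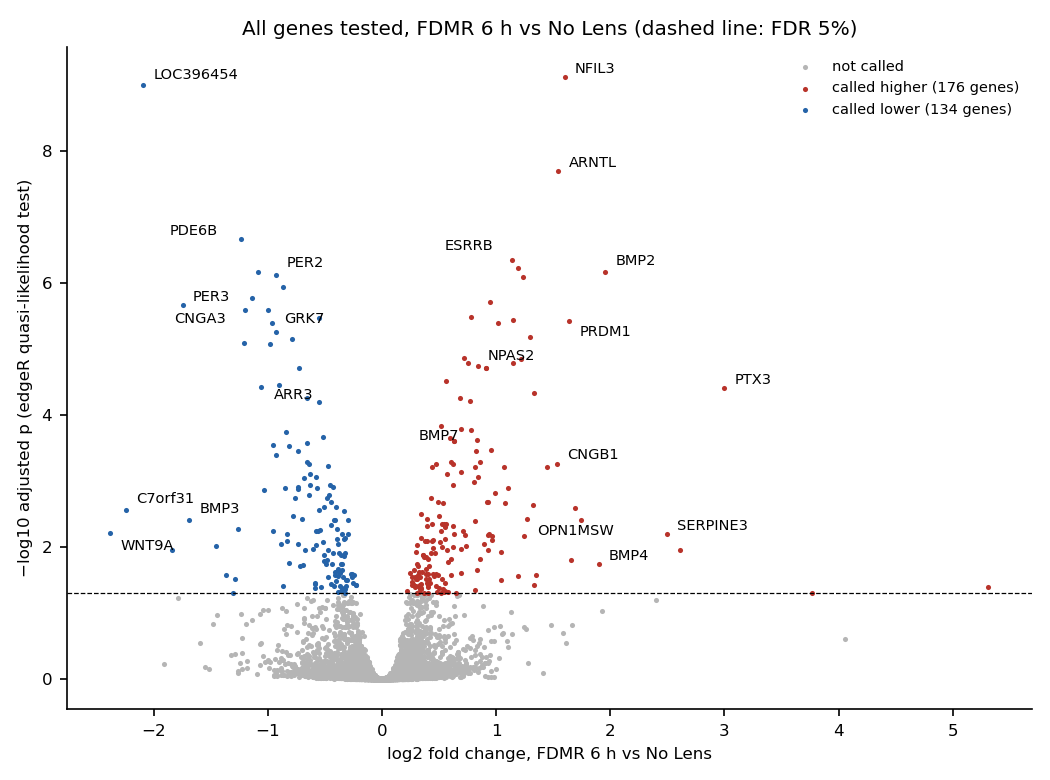
Each point is a gene, with its log2 fold change at FDMR 6 h vs No Lens across and -log10 of its adjusted p upward; red points (176) were called higher and blue points (134) lower at the dashed FDR of 5%. NFIL3 and ARNTL lie highest on the right and LOC396454 (purpurin) highest on the left.

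Of 6 clock activators tested, 2 were called higher at 6 h and none lower, against 1.55% and 1.18% of all genes tested, with a median log2 fold change of 0.40. They were NPAS2 and ARNTL, whose proteins pair to switch on clock-controlled genes. ARNTL measured 60.1, 58.1, 71.9 and 82.4 CPM in the No Lens chicks and 200.5, 192, 203 and 200.3 CPM in the FDMR 6 h chicks, listed in the order of chicks 3, 4, 6 and 7 and of chicks 18, 19, 21 and 23, as in all such lists below. The 2 groups were far apart, and the rise was 2.92-fold (log2 fold change 1.54 ± 0.10 (SE), edgeR adjusted p = 2.06e-08). NPAS2 stood at 60.1, 55.2, 67.6 and 64.8 CPM in the No Lens chicks and 97.3, 100.0, 119.8 and 125 CPM in the FDMR 6 h chicks, again without overlap, a 1.79-fold rise (log2 fold change 0.84 ± 0.09 (SE), edgeR adjusted p = 1.84e-05). CLOCK, the other partner of BMAL1, ranged from 61.8 to 81.7 CPM in the controls and 83 to 108 CPM at 6 h and was not called (log2 fold change 0.32 ± 0.12 (SE), edgeR adjusted p = 0.273). ARNTL2, a second BMAL gene, was not called either (log2 fold change 0.45 ± 0.13 (SE), edgeR adjusted p = 0.0983), nor were the orphan receptor RORB (0.02 ± 0.11, edgeR adjusted p = 0.995) and the coactivator PPARGC1A (0.36 ± 0.13, edgeR adjusted p = 0.22). NFIL3 encodes E4BP4, a repressor of the D-box genes that the clock drives, and it had the smallest adjusted p of any gene here. Its values were 53.2, 55.9, 56 and 49.1 CPM in the No Lens chicks and 150.2, 154, 183 and 161 CPM in the FDMR 6 h chicks. Every FDMR 6 h chick had a higher level than any control, a 3.03-fold rise (log2 fold change 1.60 ± 0.08 (SE), edgeR adjusted p = 7.73e-10). TEF and HLF, the activators that compete with NFIL3 at the same sites, were not called (-0.15 ± 0.07, edgeR adjusted p = 0.581 and -0.18 ± 0.12, edgeR adjusted p = 0.774).

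Of 10 genes of the repressor arm of the clock tested, 4 were called lower, 1 was called higher and 5 were not called (median -0.31), against 1.18% lower and 1.55% higher over all genes tested. PER3, a period gene, fell 3.36-fold. It measured 263, 241, 195 and 184 CPM in the No Lens chicks and 65.9, 77.3, 68.2 and 51.5 CPM in the FDMR 6 h chicks (log2 fold change -1.75 ± 0.16 (SE), edgeR adjusted p = 2.21e-06), so the highest FDMR 6 h chick was well below the lowest control. PER2, the light-responsive period gene, measured 1204, 1084, 985 and 1017 CPM in the No Lens chicks and 532, 588, 623 and 508 CPM in the FDMR 6 h chicks, a 1.91-fold fall with no overlap (log2 fold change -0.93 ± 0.08 (SE), edgeR adjusted p = 7.65e-07). The cryptochrome CRY2 stood at 524, 526, 484 and 519 CPM in the No Lens chicks and 362, 369.7, 339 and 363 CPM in the FDMR 6 h chicks (log2 fold change -0.52 ± 0.07 (SE), edgeR adjusted p = 0.00022), with a narrow spread in both groups. CRY1 ranged from 272 to 303 CPM in the controls and 291 to 312 CPM at 6 h and was not called (log2 fold change 0.07 ± 0.07 (SE), edgeR adjusted p = 0.93). NR1D2, which encodes REV-ERB beta, a repressor of ARNTL and NFIL3 in mammals, fell from 409 ± 60.2 to 258 ± 22.8 CPM (mean ± SD, n = 4; log2 fold change -0.66 ± 0.10 (SE), edgeR adjusted p = 0.000519). FBXL21, an F-box protein that controls cryptochrome stability in mammals, went the other way, from 72.5 ± 5.29 to 112 ± 7.23 CPM (log2 fold change 0.63 ± 0.09 (SE), edgeR adjusted p = 0.000249). BHLHE40 and CRY4 were not called (-0.49 ± 0.34, edgeR adjusted p = 0.808 and 0.14 ± 0.24, edgeR adjusted p = 0.965).

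The other groups with occlusion were collected at 10 am, like the controls. Against No Lens, only 3 of the 11334 genes tested were called at FDM 7 d (0.0265%), and 151 at FDMR 24 h (1.33%). In the FDM 7 d group ARNTL was 62.8 ± 3.39 CPM, NFIL3 54.8 ± 3.99 CPM and PER3 255 ± 59.7 CPM, and none of the clock genes was called against No Lens. At FDMR 24 h, ARNTL was 94.7 ± 10.8 CPM and still called above No Lens (log2 fold change 0.46 ± 0.10 (SE), edgeR adjusted p = 0.026), and PER2 (-0.48 ± 0.08, edgeR adjusted p = 0.00273) and PER3 (-0.69 ± 0.16, edgeR adjusted p = 0.0317) were still called below. The difference between the 24 h and the 6 h effect was tested as FDMR 24 h vs FDMR 6 h, where 220 genes were called (1.94%). It was -1.08 ± 0.10, edgeR adjusted p = 4.58e-06 for ARNTL, -1.28 ± 0.08, edgeR adjusted p = 1.68e-08 for NFIL3, -0.83 ± 0.10, edgeR adjusted p = 9.09e-05 for NPAS2 and 1.06 ± 0.17, edgeR adjusted p = 0.00143 for PER3. CRY2 (0.23 ± 0.07, edgeR adjusted p = 0.122) and NR1D2 (0.27 ± 0.10, edgeR adjusted p = 0.19) did not pass that test. The hour of collection differs between these groups as well, 4 pm against 10 am.

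**Figure D2:**
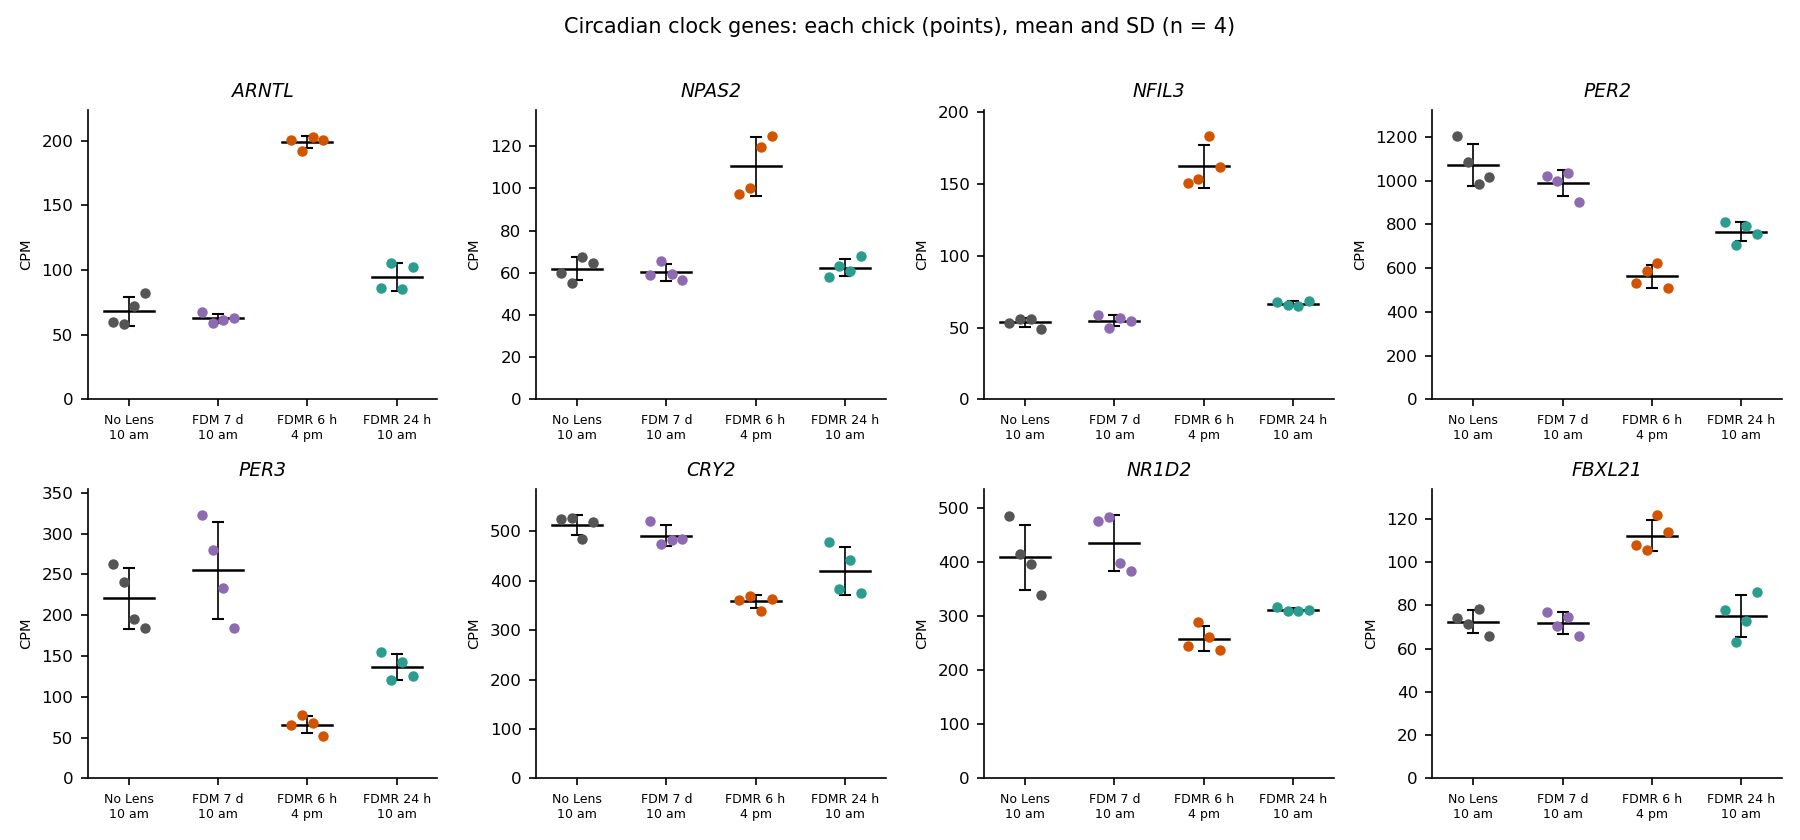
Level of 8 clock genes in CPM (vertical axes, from 0) in each of the 16 chicks (points) by group, with the mean and SD of 4 chicks; the hour of collection stands under each group. ARNTL, NPAS2, NFIL3 and FBXL21 are highest and PER2, PER3, CRY2 and NR1D2 lowest in the FDMR 6 h group collected at 4 pm.

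A pair of enzymes among the 8 melatonin genes tested was called, in opposite directions, where 2.74% of all genes tested were called. TPH1, the first enzyme of serotonin and melatonin synthesis, rose 2.73-fold, with 13.4, 5.75, 8.28 and 13.4 CPM in the No Lens chicks and 32.1, 27.8, 25.7 and 26.1 CPM in the FDMR 6 h chicks (log2 fold change 1.45 ± 0.22 (SE), edgeR adjusted p = 0.000608). ASMT, which makes melatonin in the last step, fell 1.87-fold, with 63.8, 68.5, 64.6 and 77 CPM in the No Lens chicks and 32.4, 36.6, 43.5 and 34.3 CPM in the FDMR 6 h chicks (log2 fold change -0.90 ± 0.11 (SE), edgeR adjusted p = 3.56e-05). Neither gene overlapped between groups. AANAT, the step that sets the melatonin rhythm, ranged from 3.92 to 15 CPM in the controls and 4.5 to 10.1 CPM at 6 h and was not called (log2 fold change -0.74 ± 0.51 (SE), edgeR adjusted p = 0.802), and over the 8 members tested the median was -0.05. Of 12 dopamine genes tested, 1 was called: SLC6A2, a plasma membrane transporter of noradrenaline that also takes up dopamine, at 6.71, 15.6, 10.9 and 10.1 CPM in the No Lens chicks and 25.5, 29.6, 18.3 and 30.2 CPM in the FDMR 6 h chicks (log2 fold change 1.24 ± 0.25 (SE), edgeR adjusted p = 0.00693). TH, the rate-limiting enzyme of dopamine synthesis, was too low to measure well (1.4 to 1.85 CPM in the controls, 1.6 to 2.94 CPM at 6 h, log2 fold change 0.45 ± 0.32 (SE), edgeR adjusted p = 0.855), and the receptor DRD4 was not called (-0.21 ± 0.09, edgeR adjusted p = 0.43).

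Cone phototransduction was mostly lower. Of 16 genes tested, 11 were called lower and 3 higher, with a median log2 fold change of -0.49, against 1.18% and 1.55% of all genes tested. All 14 were separated between groups, as were 129 of the 134 genes called lower and 171 of the 176 called higher. Over all genes tested, 3.01% were separated downward and 3.73% upward. The list includes shutoff and calcium sensor genes that rods use too. At the top of the cascade, OPN1MSW, a green-sensitive cone opsin, rose rather than fell. It measured 128, 223, 218 and 328 CPM in the No Lens chicks and 557, 438, 522 and 653 CPM in the FDMR 6 h chicks (log2 fold change 1.27 ± 0.23 (SE), edgeR adjusted p = 0.00375). The cone transducin alpha subunit GNAT2 was not called, at 348 to 558 CPM in the controls and 453 to 589.5 CPM at 6 h (log2 fold change 0.12 ± 0.13 (SE), edgeR adjusted p = 0.935), while its gamma subunit GNGT2 rose 1.5-fold, from 738 ± 141 to 1104 ± 71.2 CPM (log2 fold change 0.58 ± 0.13 (SE), edgeR adjusted p = 0.0171). PDE6C, the catalytic subunit of the cone phosphodiesterase, fell 1.73-fold. Its values were 755, 708, 735 and 710.0 CPM in the No Lens chicks and 395, 418, 495 and 374 CPM in the FDMR 6 h chicks (log2 fold change -0.79 ± 0.08 (SE), edgeR adjusted p = 7.07e-06), and the lowest control lay far above the highest FDMR 6 h chick. Its inhibitory subunit PDE6H fell 1.29-fold, from 3572 ± 194 to 2772 ± 165 CPM (log2 fold change -0.37 ± 0.09 (SE), edgeR adjusted p = 0.0252). CNGA3, the main subunit of the cone channel, stood at 232, 189.6, 179 and 184 CPM in the No Lens chicks and 84.3, 89.1, 83.1 and 84.6 CPM in the FDMR 6 h chicks, a 2.3-fold fall (log2 fold change -1.20 ± 0.11 (SE), edgeR adjusted p = 2.63e-06), and its partner CNGB3 fell 1.34-fold (log2 fold change -0.42 ± 0.08 (SE), edgeR adjusted p = 0.00391). SLC24A2, the exchanger that moves calcium out of the cone outer segment, fell 1.47-fold (log2 fold change -0.55 ± 0.07 (SE), edgeR adjusted p = 6.5e-05). GNGT2 was not called without No Lens chicks 4 and 6 and FDMR 6 h chick 23 (adjusted p up to 0.0637), nor PDE6H without No Lens chicks 4, 6 and 7 and FDMR 6 h chicks 18, 19 and 23 (adjusted p up to 0.0992), each left out in turn.

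Among the genes that end the light response, ARR3, GRK7, RGS9BP and RGS9 were called lower. ARR3, cone arrestin, which binds activated opsin, fell 2.08-fold. It measured 1003, 1485, 1477 and 1548 CPM in the No Lens chicks and 566, 664, 658 and 761 CPM in the FDMR 6 h chicks (log2 fold change -1.06 ± 0.13 (SE), edgeR adjusted p = 3.76e-05); No Lens chick 3 was the lowest control and still above every FDMR 6 h chick. GRK7, the cone opsin kinase, stood at 321, 286, 262 and 281 CPM in the No Lens chicks and 157, 157, 153 and 122 CPM in the FDMR 6 h chicks, a 1.95-fold fall (log2 fold change -0.97 ± 0.10 (SE), edgeR adjusted p = 4.02e-06). RGS9BP anchors RGS9, the protein that speeds transducin shutoff. RGS9BP fell 1.83-fold, from 1069 ± 83.6 to 584 ± 40.2 CPM (log2 fold change -0.87 ± 0.08 (SE), edgeR adjusted p = 1.17e-06), and RGS9 fell 1.24-fold (log2 fold change -0.31 ± 0.08 (SE), edgeR adjusted p = 0.0314), although RGS9 was not called without No Lens chicks 6 and 7 and FDMR 6 h chicks 18, 19, 21 and 23 (adjusted p up to 0.125). The calcium sensors of guanylate cyclase were split. GUCA1A fell from 716 ± 59.9 to 399 ± 63.1 CPM (log2 fold change -0.84 ± 0.12 (SE), edgeR adjusted p = 0.000185) and GUCA1C from 234 ± 22.2 to 133 ± 22.4 CPM (log2 fold change -0.81 ± 0.12 (SE), edgeR adjusted p = 0.000297). GUCA1B rose 1.33-fold (log2 fold change 0.41 ± 0.09 (SE), edgeR adjusted p = 0.0193) but was not called without No Lens chick 6 and FDMR 6 h chicks 19, 21 and 23 (adjusted p up to 0.0664). The cyclase GUCY2F, which remakes cyclic GMP, was not called (-0.12 ± 0.12, edgeR adjusted p = 0.907).

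No gene of the cone list was called at FDM 7 d against No Lens, where only 3 of the 11334 genes tested were called (0.0265%). At FDMR 24 h, 151 genes were called against No Lens (1.33%). ARR3 was 1426 ± 177 CPM at FDM 7 d and 1353 ± 145 CPM at FDMR 24 h, beside 1378 ± 252 CPM in the controls, and the 24 h effect differed from the 6 h effect by 1.03 ± 0.13, edgeR adjusted p = 0.000151. The same difference was 0.70 ± 0.10, edgeR adjusted p = 0.000533 for GRK7, 0.71 ± 0.12, edgeR adjusted p = 0.00189 for GUCA1A and 0.43 ± 0.08, edgeR adjusted p = 0.0089 for PDE6C. PDE6C (-0.36 ± 0.08, edgeR adjusted p = 0.029), CNGA3 (-0.57 ± 0.11, edgeR adjusted p = 0.0117), SLC24A2 (-0.34 ± 0.07, edgeR adjusted p = 0.0164) and RGS9BP (-0.43 ± 0.08, edgeR adjusted p = 0.00569) were still below No Lens at 24 h. For OPN1MSW, which measured 388 ± 122 CPM at 24 h, neither the 24 h effect (0.77 ± 0.24, edgeR adjusted p = 0.139) nor its difference from the 6 h effect (-0.50 ± 0.23, edgeR adjusted p = 0.305) was called.

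Of 10 rod phototransduction genes tested, 4 were called higher and 1 lower, against 1.55% and 1.18% of all genes tested, and 5 were not called (median -0.06). Rod transducin (GNAT1) was not called (-0.11 ± 0.21, edgeR adjusted p = 0.973). CNGB1, the modulatory subunit of the rod channel, rose 2.9-fold. It stood at 17.6, 38.2, 32.1 and 56.5 CPM in the No Lens chicks and 103, 92.1, 106 and 122 CPM in the FDMR 6 h chicks, so that even the highest control was below every FDMR 6 h chick (log2 fold change 1.53 ± 0.23 (SE), edgeR adjusted p = 0.000549). SLC24A1, the rod exchanger that pairs with that channel, rose 2.12-fold, from 62 ± 8.09 to 132 ± 10.7 CPM (log2 fold change 1.08 ± 0.19 (SE), edgeR adjusted p = 0.00217). The alpha subunit CNGA1 (0.57 ± 0.15, edgeR adjusted p = 0.0489) and the transducin beta subunit GNB1 (0.31 ± 0.08, edgeR adjusted p = 0.0499) were called higher with adjusted p-values close to the threshold. CNGA1 was not called without No Lens chicks 3, 4 and 6 and FDMR 6 h chicks 18, 19 and 21 (adjusted p up to 0.19) or with limma-voom (adjusted p = 0.0548), and GNB1 was not called without No Lens chicks 3, 4, 6 and 7 and FDMR 6 h chicks 18, 19, 21 and 23 (adjusted p up to 0.182). PDE6B, a catalytic subunit of the rod phosphodiesterase, fell 2.36-fold. Its values were 395, 389.8, 328 and 392 CPM in the No Lens chicks and 168, 178, 158 and 134 CPM in the FDMR 6 h chicks (log2 fold change -1.24 ± 0.09 (SE), edgeR adjusted p = 2.18e-07). At 24 h it measured 299 ± 27.3 CPM, above the 6 h level (24 h vs 6 h 0.91 ± 0.09, edgeR adjusted p = 1.91e-05), with a mean still below the lowest control. Summed rod markers overlapped between the groups while summed cone markers did not, as given above, and the part of cell numbers in these values was not tested.

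**Figure D3:**
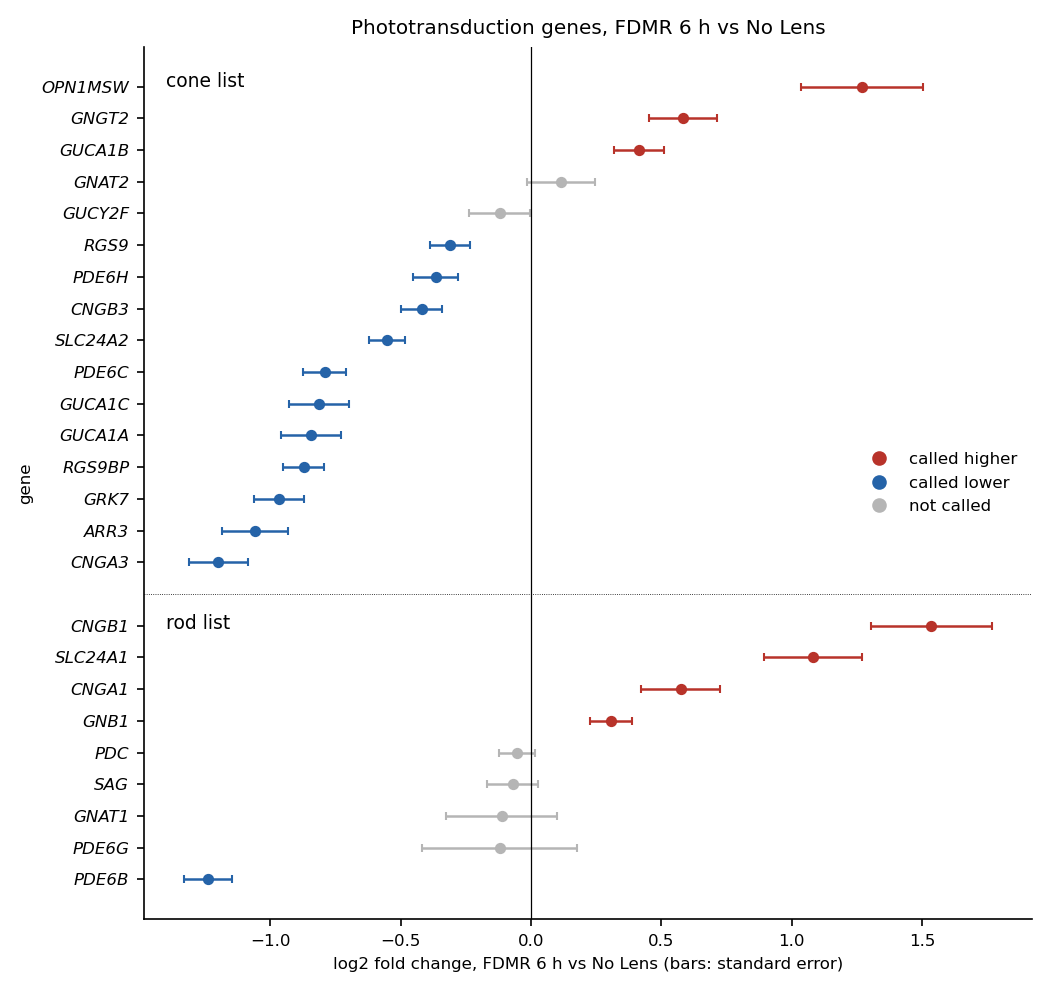
Log2 fold change at FDMR 6 h vs No Lens (points, horizontal axis) with its standard error (bars) for the 16 cone list genes and 9 of the 10 rod list genes tested; red was called higher, blue lower and grey not called. In the cone list 11 genes lie to the left of 0 in blue, led by CNGA3 and ARR3, and OPN1MSW lies farthest right; in the rod list CNGB1 and SLC24A1 lie right and PDE6B left.

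Beyond the cascade, one of the largest falls belonged to LOC396454, described in the table as purpurin, a secreted retinol-binding protein of the chick retina. It measured 5074, 5173, 4198 and 4638 CPM in the No Lens chicks and 1212, 1312, 1008 and 936 CPM in the FDMR 6 h chicks, a 4.27-fold fall with the groups far apart (log2 fold change -2.09 ± 0.11 (SE), edgeR adjusted p = 1.01e-09). At FDM 7 d it was 4528 ± 281 CPM and at FDMR 24 h 3849 ± 475 CPM, and the 24 h effect differed from the 6 h effect by 1.79 ± 0.11, edgeR adjusted p = 1.68e-08. LRAT, which turns retinol into the esters that the visual cycle stores, fell 2.0-fold, with 133, 132, 122 and 124 CPM in the No Lens chicks and 63.7, 62.1, 70.0 and 59.9 CPM in the FDMR 6 h chicks (log2 fold change -1.0 ± 0.10 (SE), edgeR adjusted p = 2.63e-06), and stood at 127 ± 19 CPM at 24 h (24 h vs 6 h 1.0 ± 0.10, edgeR adjusted p = 9.65e-06). ABCA4, the outer segment transporter that clears retinal, rose 1.55-fold, from 279 ± 28.9 to 432 ± 14.6 CPM (log2 fold change 0.63 ± 0.09 (SE), edgeR adjusted p = 0.000247). LRAT and ABCA4 were the called members of 11 visual cycle genes tested (median -0.08), where 2.74% of all genes tested were called. RBP3, the retinoid carrier between photoreceptors and RPE, ranged from 818 to 1002 CPM in the controls and 542 to 774 CPM at 6 h and was not called (log2 fold change -0.38 ± 0.11 (SE), edgeR adjusted p = 0.0887). Of 6 non-visual opsins none was called, with RGR at 0.30 ± 0.09, edgeR adjusted p = 0.127 and the melanopsin gene OPN4 at 0.43 ± 0.13, edgeR adjusted p = 0.0962.

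A pair of the 14 photoreceptor transcription factors tested rose, and the median of the list was 0.02. Over all genes tested, 1.55% were called higher. PRDM1, the repressor BLIMP1 that keeps young photoreceptors from the bipolar fate in mice, rose 3.11-fold. It measured 29.1, 45.7, 54.7 and 56.5 CPM in the No Lens chicks and 127, 141, 153 and 158 CPM in the FDMR 6 h chicks (log2 fold change 1.64 ± 0.16 (SE), edgeR adjusted p = 3.84e-06), and no control reached the lowest FDMR 6 h chick. ESRRB, an orphan nuclear receptor that supports rods in mice, rose 2.2-fold, with 74.4, 82.7, 82.8 and 98 CPM in the No Lens chicks and 199.8, 171, 183 and 190.3 CPM in the FDMR 6 h chicks (log2 fold change 1.14 ± 0.09 (SE), edgeR adjusted p = 4.53e-07). Both were near the control level at FDM 7 d (41.5 ± 6.98 CPM for PRDM1 and 83.8 ± 9.14 CPM for ESRRB) and differed between 24 h and 6 h (-1.38 ± 0.16, edgeR adjusted p = 9.82e-05 for PRDM1, -0.73 ± 0.09, edgeR adjusted p = 0.000145 for ESRRB). The rod factor gene NR2E3 was low and variable (2.52 to 9.92 CPM in the controls, 0.245 to 3.89 CPM at 6 h) and was not called (log2 fold change -1.78 ± 0.49 (SE), edgeR adjusted p = 0.0604).

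Of the BMP ligands, BMP2, BMP4 and BMP7 rose and BMP3 fell. BMPs are secreted factors of the TGF-beta family, and BMP2, BMP4 and BMP7 signal through SMAD1, SMAD5 and SMAD9. BMP2 measured 12.3, 18.8, 19.5 and 19.4 CPM in the No Lens chicks and 59.1, 68.3, 79 and 66.8 CPM in the FDMR 6 h chicks, a 3.88-fold rise over the controls (log2 fold change 1.96 ± 0.16 (SE), edgeR adjusted p = 6.82e-07). No FDMR 6 h chick came near the range of the controls. At FDM 7 d, when the eye was occluded, BMP2 was 4.24 ± 1.78 CPM, below the controls (log2 fold change -2.07 ± 0.22 (SE), edgeR adjusted p = 0.000276), 1 of 3 genes called between FDM 7 d and No Lens (0.0265%). BMP7 rose 1.78-fold, with 229, 294, 311 and 285 CPM in the No Lens chicks and 381, 473, 579 and 559 CPM in the FDMR 6 h chicks (log2 fold change 0.83 ± 0.12 (SE), edgeR adjusted p = 0.000237). BMP4 was far lower in count and more scattered, at 0.559, 4.14, 5.96 and 10.8 CPM in the No Lens chicks and 15, 14.1, 19 and 33.8 CPM in the FDMR 6 h chicks (log2 fold change 1.90 ± 0.43 (SE), edgeR adjusted p = 0.0182), and the groups were still separate. BMP4 was not called without No Lens chicks 4 and 6 and FDMR 6 h chick 23 (adjusted p up to 0.0837) or with only the 8 libraries in the fit (adjusted p = 0.0887). BMP3, an antagonistic member of the family, stood at 5.59, 7.35, 10.6 and 5.77 CPM in the No Lens chicks and 2.7, 2.78, 1.8 and 1.6 CPM in the FDMR 6 h chicks, a 3.22-fold fall (log2 fold change -1.69 ± 0.31 (SE), edgeR adjusted p = 0.00388). The ligands that rose were still above No Lens at 24 h, at 10 am, where 1.33% of all genes tested were called. BMP2 was 49.1 ± 5.07 CPM (log2 fold change 1.48 ± 0.17 (SE), edgeR adjusted p = 0.000186 vs No Lens), BMP4 21.2 ± 4.29 CPM (1.97 ± 0.44, edgeR adjusted p = 0.0251) and BMP7 469.7 ± 46 CPM (0.74 ± 0.12, edgeR adjusted p = 0.00201). For none of the 3 did the 24 h effect differ from the 6 h effect past the threshold, with -0.47 ± 0.15, edgeR adjusted p = 0.129 for BMP2 and -0.09 ± 0.11, edgeR adjusted p = 0.757 for BMP7.

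Over the 30 BMP pathway genes tested, the ligands included, 4 were called higher and 2 lower, with a median of 0.05. Over all genes tested, 1.55% were called higher and 1.18% lower. Those called higher were the ligands BMP2, BMP4 and BMP7 and ACVR1C, the activin-type receptor ALK7, which is not a BMP receptor but was in the list. ACVR1C rose 1.53-fold, from 35.7 ± 5.54 to 55.1 ± 7.17 CPM (log2 fold change 0.62 ± 0.12 (SE), edgeR adjusted p = 0.00484), and the extracellular BMP antagonist CHRDL1 fell 1.28-fold (log2 fold change -0.36 ± 0.08 (SE), edgeR adjusted p = 0.0185). CHRDL1 was not called without No Lens chick 4 and FDMR 6 h chicks 19 and 23 (adjusted p up to 0.0932). SMAD6, an inhibitory SMAD that BMP signalling induces, was separated between groups, at 13.7 to 27.7 CPM in the controls and 29.6 to 35.4 CPM at 6 h, but was not called (log2 fold change 0.50 ± 0.17 (SE), edgeR adjusted p = 0.219). The target ID1 was at 0.839 to 4.31 CPM and 1.03 to 3.19 CPM and was not called (log2 fold change -0.70 ± 0.56 (SE), edgeR adjusted p = 0.855).

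Genes of the TGF-beta and matrix signalling list included 3 that rose among 19 tested (median 0.13), against 1.55% of all genes tested. CTGF, a matricellular growth factor, rose 2.32-fold, with 66.6, 105, 114 and 114 CPM in the No Lens chicks and 218, 224, 245 and 242 CPM in the FDMR 6 h chicks (log2 fold change 1.21 ± 0.13 (SE), edgeR adjusted p = 1.44e-05). SERPINE3, a serine protease inhibitor family member, was barely detected in the controls and rose 5.64-fold, at 1.12, 2.53, 5.63 and 0.923 CPM in the No Lens chicks and 15.7, 13.9, 12.1 and 13.3 CPM in the FDMR 6 h chicks (log2 fold change 2.50 ± 0.49 (SE), edgeR adjusted p = 0.00643). SMAD2, the signal carrier of TGF-beta and activin, rose 1.31-fold (log2 fold change 0.39 ± 0.09 (SE), edgeR adjusted p = 0.0143) and was not called without No Lens chicks 6 and 7 and FDMR 6 h chick 19 (adjusted p up to 0.0632). PTX3, a secreted pentraxin of innate immunity and matrix assembly, had the largest rise of a named gene. It measured 0.559, 4.83, 2.32 and 5.07 CPM in the No Lens chicks and 25.5, 27.8, 14.4 and 39.6 CPM in the FDMR 6 h chicks, an 8.0-fold rise (log2 fold change 3.0 ± 0.36 (SE), edgeR adjusted p = 3.97e-05), from 52 counts over the 4 controls to 463 over the 4 FDMR 6 h chicks. ALDH1A2, which makes retinoic acid and is the choroidal source of it in the chick, measured 131, 227, 164 and 148 CPM in the No Lens chicks and 263, 368, 269 and 282 CPM in the FDMR 6 h chicks (log2 fold change 0.82 ± 0.15 (SE), edgeR adjusted p = 0.00408). It was the 1 gene called among 14 retinoic acid genes tested (median 0.10), where 2.74% of all genes tested were called. SNAI1, a transcriptional repressor that TGF-beta and BMP signals switch on, rose 3.23-fold from 3.32 ± 0.586 to 10.8 ± 2.25 CPM (log2 fold change 1.69 ± 0.30 (SE), edgeR adjusted p = 0.00262). C7, a terminal complement component, rose 1.75-fold (log2 fold change 0.81 ± 0.21 (SE), edgeR adjusted p = 0.0453), the 1 gene called among 10 complement genes (median 0.26), and was not called without No Lens chicks 3, 6 and 7 and FDMR 6 h chicks 18, 19, 21 and 23 (adjusted p up to 0.153).

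Most of these factors stayed high at 24 h, where 151 genes were called against No Lens (1.33%). PTX3 was 0.734 ± 0.337 CPM at FDM 7 d, 26.8 ± 10.3 CPM at 6 h and 24.3 ± 2.57 CPM at 24 h (log2 fold change 2.85 ± 0.37 (SE), edgeR adjusted p = 0.000433 vs No Lens). SERPINE3 was 18 ± 11.8 CPM at 24 h (2.79 ± 0.50, edgeR adjusted p = 0.00569), CTGF 209.5 ± 25.5 CPM (1.06 ± 0.14, edgeR adjusted p = 0.000398), ALDH1A2 338 ± 60.5 CPM (1.01 ± 0.15, edgeR adjusted p = 0.00177) and SNAI1 9.51 ± 3.83 CPM (1.44 ± 0.31, edgeR adjusted p = 0.0233). None of these 5 differed between 24 h and 6 h past the threshold, with adjusted p-values of edgeR from 0.575 to 0.843. At FDM 7 d, ALDH1A2 was 102 ± 8.14 CPM and was not called against No Lens (log2 fold change -0.72 ± 0.16 (SE), edgeR adjusted p = 0.343).

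**Figure D4:**
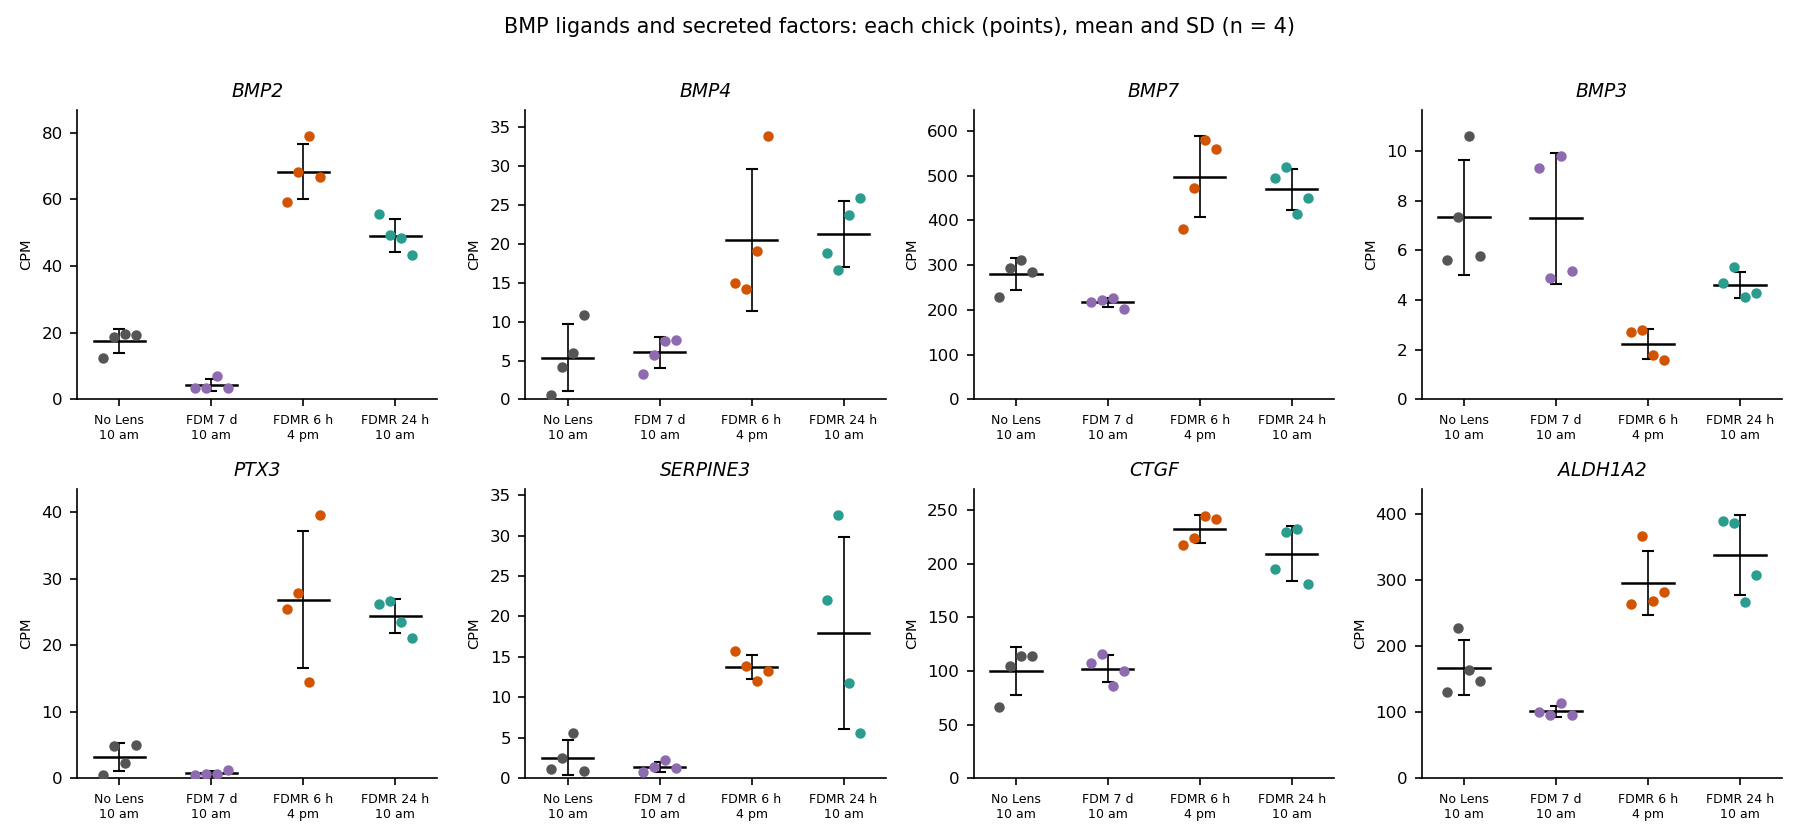
Level in CPM (vertical axes, from 0) of 4 BMP ligands and 4 other secreted factors or enzymes in each of the 16 chicks (points) by group, with the mean and SD of 4 chicks. BMP2, BMP4, BMP7, PTX3, CTGF and ALDH1A2 lie above the controls in both recovery groups, while BMP3 is lowest in the FDMR 6 h group.

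A few lipid genes were called. DGAT2, the last enzyme of triglyceride synthesis, rose 2.02-fold, with 30.2, 42.1, 39.8 and 41.1 CPM in the No Lens chicks and 79.9, 73.9, 77.2 and 79.1 CPM in the FDMR 6 h chicks (log2 fold change 1.01 ± 0.10 (SE), edgeR adjusted p = 4.11e-06), and was back at 40.2 ± 4.08 CPM by 24 h (24 h vs 6 h -0.93 ± 0.10, edgeR adjusted p = 4.55e-05). ELOVL2, which elongates the precursors of docosahexaenoic acid, rose 1.51-fold (log2 fold change 0.59 ± 0.08 (SE), edgeR adjusted p = 0.000221). The acyl-CoA synthetase ACSL3 (1.28-fold, log2 fold change 0.36 ± 0.08 (SE), edgeR adjusted p = 0.0134) and the acyltransferase AGPAT3 (1.23-fold, log2 fold change 0.30 ± 0.06 (SE), edgeR adjusted p = 0.0121) rose by less, while PNPLA2, the lipase that starts triglyceride breakdown, fell 1.32-fold (log2 fold change -0.40 ± 0.10 (SE), edgeR adjusted p = 0.0333). These were the 5 called of 31 genes tested (median -0.03), where 2.74% of all genes tested were called. None of those 3 was called in a fit of only the 8 libraries, with adjusted p = 0.0698, 0.0734 and 0.102. ACSL3 was not called without No Lens chicks 4 and 6 (adjusted p up to 0.0564), AGPAT3 without No Lens chick 6 (adjusted p = 0.0546), or PNPLA2 without No Lens chicks 4 and 6 and FDMR 6 h chicks 18, 19 and 23 (adjusted p up to 0.139). In cholesterol synthesis 2 of 22 genes were called, both higher, and 20 had a positive log2 fold change (median 0.18), as did 5727 of the 11334 genes tested. They were FDFT1, squalene synthase, at 131, 121, 133 and 136 CPM in the No Lens chicks and 171, 162, 139 and 208 CPM in the FDMR 6 h chicks (log2 fold change 0.39 ± 0.09 (SE), edgeR adjusted p = 0.0308), and INSIG1, which holds the sterol sensor in the endoplasmic reticulum, at 85.5 ± 6.33 and 108 ± 1.79 CPM (log2 fold change 0.34 ± 0.09 (SE), edgeR adjusted p = 0.037). FDFT1 was not called without No Lens chicks 3, 4, 6 and 7 and FDMR 6 h chicks 18, 19 and 23 (adjusted p up to 0.118), and INSIG1 was not called without No Lens chicks 4, 6 and 7 and FDMR 6 h chicks 18, 19, 21 and 23 (adjusted p up to 0.134).

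Of 34 genes of protein folding in the endoplasmic reticulum 3 were called, all higher (median 0.12), where 2.74% of all genes tested were called. They were HSP90B1, which folds secreted and membrane proteins (1.35-fold, log2 fold change 0.43 ± 0.09 (SE), edgeR adjusted p = 0.0124), the disulfide isomerase PDIA4 (1.31-fold, log2 fold change 0.39 ± 0.08 (SE), edgeR adjusted p = 0.00802) and the calcium-binding lectin CALR (1.26-fold, log2 fold change 0.34 ± 0.08 (SE), edgeR adjusted p = 0.0382). PDIA4 stood at 125, 139, 132 and 110.3 CPM in the No Lens chicks and 171, 183, 167 and 144 CPM in the FDMR 6 h chicks, and its groups did not overlap. Among cytosolic heat shock genes 2 of 31 were called, both lower (median -0.01): ST13, a cochaperone of HSP70 (1.31-fold, log2 fold change -0.39 ± 0.08 (SE), edgeR adjusted p = 0.00903), and the HSP110 gene HSPH1 (1.26-fold, log2 fold change -0.33 ± 0.09 (SE), edgeR adjusted p = 0.0448), whose chicks overlapped. HSPA8, the constitutive HSP70, was not called (-0.05 ± 0.07, edgeR adjusted p = 0.95). HSP90B1 was not called without No Lens chicks 6 and 7 and FDMR 6 h chick 19 (adjusted p up to 0.0604), CALR without No Lens chicks 3, 6 and 7 and FDMR 6 h chicks 18, 19 and 23 (adjusted p up to 0.166), or HSPH1 without No Lens chicks 3, 4 and 7 and FDMR 6 h chicks 18, 21 and 23 (adjusted p up to 0.139). Of 47 splicing genes 1 was called, the RNA helicase DDX5, which rose 1.24-fold (log2 fold change 0.31 ± 0.07 (SE), edgeR adjusted p = 0.0182), and 42 of the 47 had a positive log2 fold change (median 0.08), as did 5727 of the 11334 genes tested. The share of splicing genes called did not exceed that of all genes tested (2.74%). DDX5 was not called without No Lens chicks 4, 6 and 7 and FDMR 6 h chicks 19 and 21 (adjusted p up to 0.0697).

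None of 37 DNA replication genes was called by edgeR's test at the FDR of 5%, where 2.74% of all genes tested were called. Of the 37, 5 had an unadjusted p under 0.05 (median 0.14), beside 1072 of all 11334 genes tested, and MCM6, a helicase subunit, was at 0.25 ± 0.09, edgeR adjusted p = 0.285. KIF2C, a kinesin that detaches microtubules from kinetochores, was the 1 mitotic gene called of 22, lower by 1.32-fold (log2 fold change -0.40 ± 0.08 (SE), edgeR adjusted p = 0.0053). FANCA, a member of the Fanconi anaemia DNA repair complex, rose 3.15-fold. It measured 5.32, 6.9, 12.6 and 5.77 CPM in the No Lens chicks and 26.7, 19.5, 20.1 and 28.1 CPM in the FDMR 6 h chicks (log2 fold change 1.65 ± 0.37 (SE), edgeR adjusted p = 0.0156), and was the 1 gene called of 30 in its list (median 0.06). FANCA was not called without No Lens chicks 4 and 7 and FDMR 6 h chick 23 (adjusted p up to 0.0626), and at FDM 7 d it was 13.7 ± 5.29 CPM. The homologous recombination genes BARD1 and BRCA1 were at a few CPM and overlapped between groups, with 0.28 ± 0.36, edgeR adjusted p = 0.949 for BARD1 and 0.32 ± 0.26, edgeR adjusted p = 0.858 for BRCA1, so a small change was not detectable at this depth.

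A few signalling genes from other lists were called, against 2.74% of all genes tested. SGK1, a kinase under hormonal and osmotic control, fell 1.26-fold, from 522 ± 29.4 to 415 ± 21.6 CPM (log2 fold change -0.33 ± 0.07 (SE), edgeR adjusted p = 0.00736), and the ERK phosphatase DUSP5 fell 1.4-fold (log2 fold change -0.49 ± 0.11 (SE), edgeR adjusted p = 0.0184). They were the 2 called of 17 immediate early genes (median -0.15), and EGR1, whose protein responds to the sign of defocus in chick glucagon amacrine cells, was not called (-0.36 ± 0.22, edgeR adjusted p = 0.723). GCG, the glucagon precursor, a candidate stop signal for eye growth in the chick, measured 29.7, 26.9, 35.5 and 32.1 CPM in the No Lens chicks and 41.7, 42.8, 51.7 and 38.6 CPM in the FDMR 6 h chicks. The groups were separate but close (log2 fold change 0.50 ± 0.13 (SE), edgeR adjusted p = 0.0426), and it was the 1 gene called of 14 neuropeptide genes. VIP, an amacrine cell peptide, was at 11.5 to 17.2 CPM in the controls and 17.6 to 22.9 CPM at 6 h and was not called (log2 fold change 0.63 ± 0.18 (SE), edgeR adjusted p = 0.0777). GCG was not called without No Lens chicks 3, 4 and 7 and FDMR 6 h chicks 18, 19 and 21 (adjusted p up to 0.161), nor DUSP5 without No Lens chicks 6 and 7 and FDMR 6 h chicks 18 and 23 (adjusted p up to 0.072). GCG was also not called with only the 8 libraries in the fit, without a filter or with libraries thinned to 3039798 counts. Of 35 Wnt genes 1 rose and 1 fell. NLK, a kinase that restrains Wnt signalling, rose 1.43-fold (log2 fold change 0.51 ± 0.07 (SE), edgeR adjusted p = 0.000148). WNT9A, a Wnt ligand, had 44 counts over the 4 controls and 9 over the 4 FDMR 6 h chicks, at 2.8, 2.53, 3.64 and 2.77 CPM in the No Lens chicks and 1.47, 0.214, 0.257 and 0.229 CPM in the FDMR 6 h chicks (log2 fold change -2.38 ± 0.47 (SE), edgeR adjusted p = 0.00623). It was another of the 3 genes called at FDM 7 d, where it was high (11.5 ± 2.73 CPM, log2 fold change 1.97 ± 0.32 (SE), edgeR adjusted p = 0.0385), and the fall at 6 h was not called with only the 8 libraries in the fit (adjusted p = 0.0519). ABCG2, an exporter of haem and drugs, fell 1.65-fold (log2 fold change -0.72 ± 0.16 (SE), edgeR adjusted p = 0.0193), the 1 gene called of 16 in the iron list, and was not called without No Lens chick 4 and FDMR 6 h chicks 18, 21 and 23 (adjusted p up to 0.0975).

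The largest changes also included genes outside these lists. KLHL34, a kelch-like protein, rose 6.12-fold, with 1.12, 1.84, 1.33 and 0 CPM in the No Lens chicks and 7.35, 7.5, 7.72 and 3.89 CPM in the FDMR 6 h chicks (log2 fold change 2.61 ± 0.56 (SE), edgeR adjusted p = 0.0112), and was at 1.49 ± 1.72 CPM at 24 h. KLHL34 passed the count filter only through the FDMR 6 h chicks. A higher level in that group was therefore built into its being tested. LAMP3, a lysosomal membrane protein, rose 2.52-fold, with 15.4, 13.8, 11.6 and 21.9 CPM in the No Lens chicks and 44.6, 41.6, 31.4 and 42.1 CPM in the FDMR 6 h chicks (log2 fold change 1.33 ± 0.16 (SE), edgeR adjusted p = 4.75e-05). GFRAL, the receptor of the stress hormone GDF15 in mammals, and CCDC170, a coiled-coil protein, were low in both groups. They rose 2.55-fold (log2 fold change 1.35 ± 0.32 (SE), edgeR adjusted p = 0.0265) and 2.51-fold (log2 fold change 1.33 ± 0.33 (SE), edgeR adjusted p = 0.0377), GFRAL not without No Lens chicks 4, 6 and 7 and FDMR 6 h chicks 18, 19 and 23 (adjusted p up to 0.101) and CCDC170 not without No Lens chicks 3, 4 and 7 and FDMR 6 h chicks 18, 19 and 21 (adjusted p up to 0.145). Downward, SLC24A4, a potassium-dependent sodium-calcium exchanger, measured 821, 669.8, 695 and 629 CPM in the No Lens chicks and 331, 314, 344 and 288 CPM in the FDMR 6 h chicks (log2 fold change -1.14 ± 0.10 (SE), edgeR adjusted p = 1.73e-06), a 2.2-fold fall. NIM1, an AMPK-related kinase, fell 2.12-fold, with 142, 125, 128 and 144 CPM in the No Lens chicks and 65.9, 69.6, 67.6 and 51 CPM in the FDMR 6 h chicks (log2 fold change -1.08 ± 0.09 (SE), edgeR adjusted p = 6.82e-07), and MRVI1, a substrate of cyclic GMP-dependent kinase in smooth muscle, fell 2.04-fold (log2 fold change -1.03 ± 0.17 (SE), edgeR adjusted p = 0.0014). C7orf31 fell 4.74-fold, from 71 counts over the controls to 16 (log2 fold change -2.24 ± 0.40 (SE), edgeR adjusted p = 0.00273), and UBAP1L fell 2.74-fold (log2 fold change -1.45 ± 0.30 (SE), edgeR adjusted p = 0.00984).

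SPTBN5, a beta spectrin, was the most scattered of the large falls, at 85, 64.4, 129 and 32.3 CPM in the No Lens chicks and 27.7, 20.6, 24.2 and 13.5 CPM in the FDMR 6 h chicks (log2 fold change -1.84 ± 0.39 (SE), edgeR adjusted p = 0.0111). Its lowest control was close to the highest FDMR 6 h chick, and it was not called without No Lens chick 6 (adjusted p = 0.0533). A4GALT, a glycosphingolipid galactosyltransferase (2.45-fold, log2 fold change -1.29 ± 0.32 (SE), edgeR adjusted p = 0.0308), P37NB (2.47-fold, log2 fold change -1.31 ± 0.34 (SE), edgeR adjusted p = 0.0498) and the unconventional myosin MYO1H (2.57-fold, log2 fold change -1.36 ± 0.33 (SE), edgeR adjusted p = 0.0266) rested on 82, 92 and 73 counts over the controls and 37, 41 and 31 at 6 h. A4GALT was not called without No Lens chicks 3 and 4 and FDMR 6 h chicks 18, 21 and 23 (adjusted p up to 0.104), P37NB without No Lens chicks 3, 4, 6 and 7 and FDMR 6 h chicks 18, 19, 21 and 23 (adjusted p up to 0.165), or MYO1H without No Lens chick 7 and FDMR 6 h chicks 18, 19 and 21 (adjusted p up to 0.112). A4GALT was also low in the other occluded chicks, at 2.27 ± 0.707 CPM at FDM 7 d and 1.52 ± 0.611 CPM at FDMR 24 h (log2 fold change -1.77 ± 0.35 (SE), edgeR adjusted p = 0.0113 vs No Lens).

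In several lists no gene was called by edgeR's test. Over all genes tested, 1072 of 11334 had an unadjusted p under 0.05. Of 52 nuclear genes of the respiratory chain 1 had an unadjusted p under 0.05, and the median was -0.08 with 37 negative. ATP5A1, an ATP synthase subunit, was at 373 to 427 CPM in the controls and 391 to 444 CPM at 6 h. Of 22 GABA and glycine receptor genes 5 had an unadjusted p under 0.05 (median -0.02). Of 24 collagens 1 did (median -0.01), and COL18A1, the source of endostatin, was at -0.54 ± 0.30, edgeR adjusted p = 0.667. Of 9 thyroid hormone genes 2 did (median -0.01), with the transporter SLCO1C1 at 0.31 ± 0.13, edgeR adjusted p = 0.377. In the iron and neuropeptide lists, where ABCG2 and GCG were called, FTH1, the ferritin heavy chain, and the peptide NTS were not called (0.26 ± 0.09, edgeR adjusted p = 0.16 and -0.29 ± 0.13, edgeR adjusted p = 0.523).

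Over the 82 named genes called at 6 h, the 24 h effect differed from the 6 h effect in 31 by the test of FDMR 24 h vs FDMR 6 h. Over all genes tested, 1.94% were called in that test. Of the 31, 12 had risen and 19 had fallen at 6 h, and in each the difference had the opposite sign to the 6 h effect. The 82 genes were chosen for their calls at 6 h, and this test uses the same FDMR 6 h chicks. The choice therefore favoured that opposite sign. The 2 comparisons with No Lens share the same control chicks. ARNTL, NPAS2, NFIL3, FBXL21, PER2, PER3, LOC396454, LRAT, ARR3, PDE6B and PRDM1 are among the 31, and the BMP ligands, PTX3, SERPINE3, CTGF, ALDH1A2 and SNAI1 are not.

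**Figure D5:**
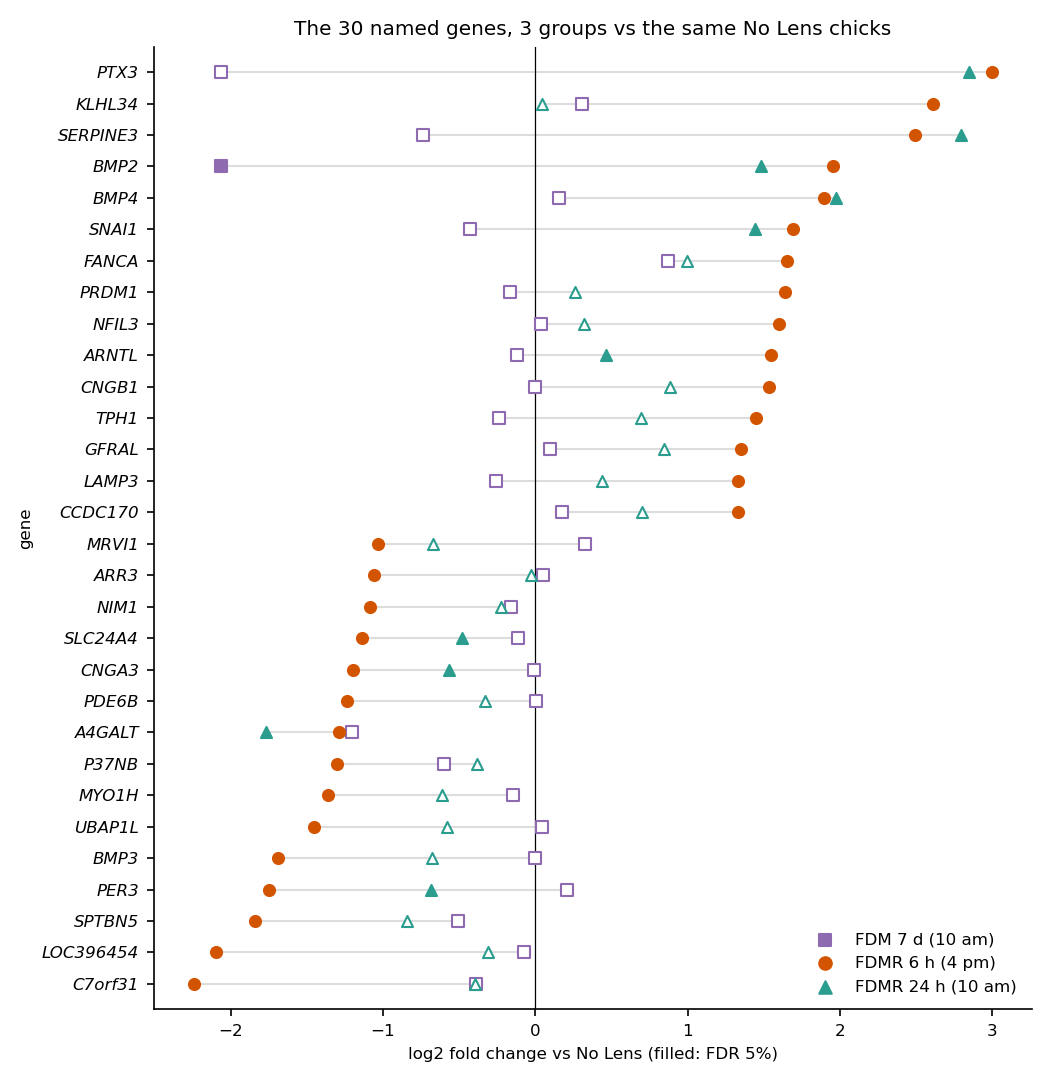
Log2 fold change vs the same 4 No Lens chicks (horizontal axis) of the named genes that changed most at 6 h, 15 upward and 15 downward, for FDM 7 d (squares), FDMR 6 h (circles) and FDMR 24 h (triangles); filled symbols were called at the FDR of 5%. PTX3, SERPINE3, BMP2, BMP4 and SNAI1 keep their rise at 24 h, while NFIL3, PRDM1, ARR3 and LOC396454 lie close to 0 at FDM 7 d and nearer to 0 at 24 h than at 6 h.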

How the data were processed

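RNA was measured in the retina/RPE/choroid of 16 chicks by single-end sequencing of stranded mRNA libraries. Extraction was by Trizol and RNeasy with RNA integrity above 8.7 in the methods of the study, and by miRNeasy with integrity above 8 in the labels. The values deposited by the authors are raw read counts per gene, 1 column per chick. The study's processing notes name FastQC, cutadapt, Trimmomatic, TopHat2 with Bowtie2, galGal4 and HTSeq. The annotation release and strand option of the counting are not given in the sources used here, so overlapping and near-identical genes are uncertain. The 6 rows that name no gene were left out, and ambiguous reads made up 0.123% to 0.163% of a compared library's total. Symbols came from the table for 13724 genes, from RefSeq accessions for 75, from a hand-written table for 51 and from the description for 1, with 3257 genes left without. The reference at hand is of another build, so no coordinates or sequences are given and promoter motifs were not counted.

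All 16 libraries were fitted with edgeR 4.0.16 (limma 3.58.1, R 4.3.3) using TMM factors (0.971 to 1.02), group as the only term, and the quasi-likelihood test at an FDR of 5%. The filter kept 99.8% of the counts. CPM use the TMM library sizes, and log2 CPM a prior count of 2. The SE given with a log2 fold change is its size divided by the square root of the quasi-likelihood F statistic. It is thus derived from the test and is only approximate for genes of few counts. Python 3.11.15, pandas 2.3.3 and matplotlib 3.10.9 served for tables and plots. The fit was tested on simulated data. Named genes are those that changed most, 15 upward and 15 downward, out of the called genes that had a symbol, averaged 10 counts or more over the 8 libraries and did not overlap between groups, the called members of the gene lists, genes the study names for this comparison and a few defining genes of lists. Members and lists were chosen with earlier results of these data known. A few genes that the rule names are not reported here. Genes named in the text outside that rule were chosen after their values were seen. p-values set each difference against the spread between chicks within groups of 4, estimated over all 16 libraries. The 95% interval of a count is 4.80 to 18.4 at 10 counts and 81.4 to 122 at 100, for counting error only. Alternatives were DESeq2 1.42.0, limma-voom, edgeR's likelihood ratio test, RLE factors, no filter, 1 CPM in 4 libraries, only the 8 libraries, libraries thinned to 3039798 counts, an FDR of 1%, a minimum log2 fold change of 0.5 (glmTreat), and leaving out each chick of the 8 libraries. Thinning lowered only libraries above that depth, so FDMR 24 h chick 29, at 1553717 counts, was unchanged.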

Additional observations from a re-analysis of the deposited data

Results flagged for a closer look

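For 31 of the 82 named genes called at 6 h, the effect at 24 h differed from that at 6 h by edgeR's test of FDMR 24 h vs FDMR 6 h. Over all genes tested, 1.94% were called in that test. The choice of the 82 and the test use the same FDMR 6 h chicks, which favours a difference opposite to the 6 h effect. KLHL34 moreover passed the count filter only through those chicks, so its fall from 6 h to 24 h was favoured by the filter too. The 24 h effect was smaller in the 12 that rose at 6 h, with a log2 difference (24 h minus 6 h) given in parentheses for KLHL34 (-2.57), PRDM1 (-1.38), NFIL3 (-1.28), ARNTL (-1.08), LAMP3 (-0.90), ESRRB (-0.73), DGAT2 (-0.93), NPAS2 (-0.83), FBXL21 (-0.57), ABCA4 (-0.60), ELOVL2 (-0.45) and NLK (-0.44). The difference was positive in the 19 that fell at 6 h, so their fall was smaller or absent at 24 h. They were RGS9 (0.35), ST13 (0.33), KIF2C (0.34), PDE6C (0.43), GUCA1C (0.71), GUCA1A (0.71), RGS9BP (0.44), ASMT (0.48), PER2 (0.45), GRK7 (0.70), LRAT (1.0), ARR3 (1.03), NIM1 (0.86), SLC24A4 (0.66), CNGA3 (0.63), PDE6B (0.91), PER3 (1.06), LOC396454 (1.79) and C7orf31 (1.85). The hour of collection, 4 pm against 10 am, differs between these groups too and cannot be told apart from time of recovery.

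In 14 of 194 groups of 4 chicks, 1 chick lay far from the other 3 by Dixon's ratio, the gap to the nearest chick over the whole range. Chance gives about 1 such group in 20. The ratio stands in parentheses. FDMR 6 h chick 23 was the lowest for KLHL34 (0.905) and GRK7 (0.898). No Lens chick 3 was the lowest for BMP2 (0.903), COL18A1 (0.848) and ARR3 (0.87). No Lens chick 6 was the lowest for GUCA1B (0.865), CRY2 (0.842) and PDE6B (0.919). No Lens chick 3 was the highest for DDX5 (0.913), NTS (0.865) and RGS9BP (0.887). FDMR 6 h chick 21 was the highest for AGPAT3 (0.842). No Lens chick 6 was the highest for UBAP1L (0.879). FDMR 6 h chick 18 was the highest for WNT9A (0.966).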

How the results depend on the processing

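The 310 calls (176 higher, 134 lower) became 382 (211 and 171) with DESeq2, 325 with limma-voom, 397 (223 and 174) with edgeR's likelihood ratio test, 308 with RLE factors, 277 without a filter, 289 at 1 CPM in 4 libraries, 246 (135 and 111) with only the 8 libraries and 275 at the thinned depth. An FDR of 1% left 168 (90 and 78), and a test against a log2 fold change of 0.5 left 37 (21 and 16). Leaving out 1 chick gave 218 to 280 calls, 118 to 153 higher and 99 to 127 lower. Of the 82 named genes called, 25 were called under every alternative that could be run for them. The 57 lost under at least 1 were all lost by the test against 0.5, 30 at an FDR of 1%, 29 without at least 1 chick and 18 under another test, normalization, filter, sample set or depth. Of those 18, BMP4, GCG, FDFT1, ACSL3, DDX5, AGPAT3, HSPH1, PNPLA2, A4GALT, MYO1H and WNT9A were lost with only the 8 libraries. The thinned depth lost CCDC170, GCG, FDFT1, INSIG1, GNB1, HSPH1, A4GALT and MYO1H. No filter lost GCG, INSIG1, GNB1, HSPH1 and P37NB, and 1 CPM in 4 libraries lost C7, CNGA1, CALR, GNB1 and P37NB. RLE factors lost GNB1, and limma-voom lost CNGA1. No named gene changed direction, and RBP3 became called under DESeq2 and the likelihood ratio test. KLHL34 dropped out of the filter when an FDMR 6 h chick was left out. The design has no pairing, because every library came from the right eye of a different chick. Genes of a few CPM rest on few counts a chick, so changes in them were not detectable unless large.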

Other observations

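Further photoreceptor genes, chosen after their values were seen, also changed at 6 h. CACNA2D4, the calcium channel subunit of photoreceptor terminals, rose 2.28-fold, with 132, 127, 179 and 162 CPM in the No Lens chicks and 343, 325, 334 and 362 CPM in the FDMR 6 h chicks (log2 fold change 1.19 ± 0.10 (SE), edgeR adjusted p = 6.02e-07). PPEF2, a photoreceptor phosphatase related to Drosophila rdgC, rose 2.45-fold (log2 fold change 1.29 ± 0.13 (SE), edgeR adjusted p = 6.7e-06), TULP1, which carries proteins to the outer segment, rose 1.81-fold (log2 fold change 0.86 ± 0.13 (SE), edgeR adjusted p = 0.000523), and CLUL1, a clusterin relative of cones, rose 1.47-fold (log2 fold change 0.56 ± 0.07 (SE), edgeR adjusted p = 3.11e-05). The ciliary genes MAK (0.50 ± 0.09, edgeR adjusted p = 0.00341), TTC8 (0.38 ± 0.09, edgeR adjusted p = 0.0214) and BBS9 (0.57 ± 0.12, edgeR adjusted p = 0.0112) also rose. Lower were CPLX4, a complexin of ribbon synapses, at 169, 136, 107 and 129 CPM in the No Lens chicks and 75.5, 78.2, 70.2 and 76.1 CPM in the FDMR 6 h chicks (log2 fold change -0.85 ± 0.14 (SE), edgeR adjusted p = 0.00127), C2orf71 (-0.73 ± 0.12, edgeR adjusted p = 0.00132), the matrix proteoglycan IMPG1 (-0.47 ± 0.08, edgeR adjusted p = 0.00166), the cadherin CDHR1 (-0.30 ± 0.06, edgeR adjusted p = 0.00645) and the scaffold MPP4 (-0.39 ± 0.09, edgeR adjusted p = 0.0234). The groups did not overlap in any of these 12 genes, nor in 171 of the 176 genes called higher and 129 of the 134 called lower. Over all genes tested, 3.73% were separated upward and 3.01% downward. TTC8 was not called without No Lens chicks 4 and 7 and FDMR 6 h chicks 19 and 21 (adjusted p up to 0.0839), BBS9 without No Lens chicks 4 and 7 (adjusted p up to 0.0543), or MPP4 without No Lens chicks 4 and 7 and FDMR 6 h chicks 19 and 23 (adjusted p up to 0.0807), each left out in turn. With only the 8 libraries in the fit, TTC8 (adjusted p = 0.0698) and MPP4 (adjusted p = 0.0743) were not called.

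Further genes, not picked as photoreceptor genes, were chosen in the same way, and the cells that express them were not tested. Of 8 RPE markers tested 1 was called, lower (median -0.18), where 2.74% of all genes tested were called. Of 8 endothelium markers none was called (median -0.25). KCNJ13, a potassium channel of the RPE, stood at 30.5, 27.8, 31.1 and 31.4 CPM in the No Lens chicks and 50.5, 47.8, 55.8 and 52.1 CPM in the FDMR 6 h chicks (log2 fold change 0.77 ± 0.10 (SE), edgeR adjusted p = 6.29e-05). At FDM 7 d KCNJ13 was 22.7 ± 2.17 CPM and was not called against No Lens (edgeR adjusted p = 0.622). At FDMR 24 h it was still called above No Lens (0.50 ± 0.10, edgeR adjusted p = 0.0124). Its 24 h effect did not differ from the 6 h effect past the threshold (-0.27 ± 0.10, edgeR adjusted p = 0.172). RGS16, which speeds the shutoff of G proteins, rose 1.94-fold (log2 fold change 0.96 ± 0.14 (SE), edgeR adjusted p = 0.000344), NPR3, the natriuretic peptide clearance receptor, rose 1.91-fold (log2 fold change 0.93 ± 0.18 (SE), edgeR adjusted p = 0.00639), and ADAMTS1, a protease of matrix proteoglycans, rose 2.1-fold (log2 fold change 1.07 ± 0.16 (SE), edgeR adjusted p = 0.000608). RGS16, NPR3 and ADAMTS1 were also still above No Lens at 24 h (1.06 ± 0.14, edgeR adjusted p = 0.000564, 0.98 ± 0.19, edgeR adjusted p = 0.00934 and 1.21 ± 0.17, edgeR adjusted p = 0.000696). Over all genes tested, 1.33% were called in that comparison. CHGA, the granin of secretory vesicles, rose 1.46-fold (log2 fold change 0.54 ± 0.10 (SE), edgeR adjusted p = 0.00451), and GJD2, which encodes connexin 36 of retinal gap junctions, measured 95.1, 84.1, 81.8 and 94.1 CPM in the No Lens chicks and 130.1, 114, 118 and 104 CPM in the FDMR 6 h chicks (log2 fold change 0.39 ± 0.09 (SE), edgeR adjusted p = 0.0257). GJD2 was not called without No Lens chicks 4 and 6 and FDMR 6 h chicks 18, 19 and 21 (adjusted p up to 0.101) or at the thinned depth (adjusted p = 0.0563). The gene ENSGALG00000004501, which has no symbol, had 1 count over the 4 controls and 66 over the 4 FDMR 6 h chicks. It was called higher (log2 fold change 5.31 ± 1.30 (SE), edgeR adjusted p = 0.0399). The call was lost when any 1 of the 8 chicks was left out (adjusted p up to 0.134) and at the thinned depth (adjusted p = 0.0755).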
